A study of Homo sapiens with 8 samples.

Results

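DNA replication genes were examined in RNA-seq libraries of MV4-11 cells. The set held 45 genes that load, activate and run the replication fork, and they were chosen by gene symbol from the 26364 genes of the expression table. All 45 were found and all 45 passed the filter on low values, which 14151 genes passed in all. MV4-11 is a human acute myeloid leukemia (AML) cell line that carries FLT3-ITD and MLL-AF4. There were 4 groups of 2 libraries: a vehicle control (DMSO), tranylcypromine (TCP) at 5 µM, palbociclib at 0.5 µM, and the combination of both at these doses. TCP inhibits the histone demethylase LSD1, and palbociclib inhibits the cyclin-dependent kinases CDK4 and CDK6. The labels give 4 days of treatment, and the design asks what each inhibitor does alone and what the second adds to the first. By the study's methods palbociclib was given for 1 day before TCP was added to it for the other 3, and the schedule of TCP alone is not spelled out there. All libraries come from 1 cell line, and nothing in the labels says whether the 2 libraries of a group came from separate cultures, so p-values measure the spread between these libraries only.

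A replication origin is prepared in G1 phase. The origin recognition complex (ORC) binds DNA, and CDC6 and CDT1 then load the MCM2-7 ring, the core of the replicative helicase, in a step called licensing. Geminin, the product of GMNN, blocks CDT1 once DNA synthesis has begun. In S phase the kinase CDC7 with its partner DBF4, together with CDC45, the GINS complex and further factors, turns the loaded ring into a moving helicase. Polymerase alpha with primase starts each strand, polymerases epsilon and delta extend it, replication factor C (RFC) loads the sliding clamp PCNA, and FEN1 and LIG1 join the Okazaki fragments. CDK4 and CDK6 phosphorylate the retinoblastoma protein, which restrains E2F transcription factors, and many replication genes are known E2F targets.

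Promoter sequences are shown first, because E2F sites are the best known feature that these genes have in common. RefSeq promoters (GRCh38.p14, 250 bases before to 50 after the transcription start) were at hand for 38 of the 45 genes. MCM4, MCM5, GINS4, RECQL4, POLD3, RPA2 and RPA3 had no entry. The 8-letter E2F sites TTTCCCGC, TTTCGCGC, TTTGCCGC and TTTGGCGC were searched on both strands. At least 1 of them occurred in 20 of the 38 genes (52.6%), against 6.60% of the 9671 tested genes with a promoter in the table and 3.31% of all 35116 promoters. In 14 genes a site lay wholly before the start. The following stretches, at most 30 bases long and read 5′ to 3′ on the strand of the gene, show the site in capitals for genes that the results turn on; GCGGGAAA is TTTCCCGC read from the other strand.
CDT1 (chr16:88803743-88803772, + strand): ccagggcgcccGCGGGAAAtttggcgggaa
GMNN (chr6:24775322-24775351, + strand): gctgggtcggtTTTGGCGCgctctcacttc
CDC7 (chr1:91501033-91501062, + strand): gtgcagttcctTTTCCCGCcccccttcgga
CDC7 (chr1:91501067-91501096, + strand): tccgacctgcgGCGGGAAAgtcgcgcgcct
MCM6 (chr2:135876515-135876544, − strand): cattggtcaggTTTGGCGCgaaatctccag
MCM6 (chr2:135876577-135876606, − strand): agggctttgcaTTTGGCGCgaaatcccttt
MCM3 (chr6:52284898-52284927, − strand): cggatggtacgTTTCCCGCcaccgcggggc
PCNA (chr20:5126663-5126692, − strand): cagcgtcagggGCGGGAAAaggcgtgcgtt
LIG1 (chr19:48170440-48170469, − strand): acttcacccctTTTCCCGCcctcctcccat
RFC3 (chr13:33818083-33818112, + strand): atttggagctcGCGGGAAAacttgtctctg
Both CDC7 stretches and both MCM6 stretches come from 1 promoter each, so these genes held 2 sites before the start. In 6 genes the match lay only in, or ran into, the first 50 transcribed bases. The match was not spread over all groups of genes: of the 6 ORC genes, only ORC3 held it.

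For contrast, the 250 bases before the start are given for the gene with the largest fall under the combination, POLE2, and for ORC4, the gene with the smallest change among those with a promoter entry. None of these stretches holds any of the 8-letter sites. ORC4 has 2 starts in the table.
POLE2 (chr14:49688215-49688464, − strand): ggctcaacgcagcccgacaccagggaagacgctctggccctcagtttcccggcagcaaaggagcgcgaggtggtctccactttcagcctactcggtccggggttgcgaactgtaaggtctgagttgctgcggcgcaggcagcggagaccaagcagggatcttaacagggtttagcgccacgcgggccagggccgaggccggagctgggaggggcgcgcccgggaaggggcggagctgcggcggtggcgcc
ORC4 (chr2:148021552-148021801, − strand): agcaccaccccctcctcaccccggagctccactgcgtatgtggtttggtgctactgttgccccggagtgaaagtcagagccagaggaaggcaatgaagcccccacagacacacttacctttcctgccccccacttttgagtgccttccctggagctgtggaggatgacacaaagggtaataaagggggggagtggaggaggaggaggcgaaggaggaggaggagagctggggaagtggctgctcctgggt
ORC4 (chr2:148020738-148020987, − strand): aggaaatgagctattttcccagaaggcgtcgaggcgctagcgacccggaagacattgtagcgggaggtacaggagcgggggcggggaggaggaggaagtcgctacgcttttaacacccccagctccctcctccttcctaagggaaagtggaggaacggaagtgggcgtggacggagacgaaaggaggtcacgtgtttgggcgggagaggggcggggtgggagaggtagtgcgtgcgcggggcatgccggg
POLE2 does hold a match in, or running into, its first 50 transcribed bases. CCAAT, in either orientation, occurred in 21 of the 38 promoters (55.3%) and in 42.8% of the tested genes. TTTGAA, the CHR element of many mitotic genes, occurred in 1 of the 38, DBF4, and in 13.8% of the tested genes. A match is a description of letters, and its absence says only that these letters are not in this window.

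Levels are given in TPM, a unit that divides the reads of a gene by its length and scales every library to the same total, so that levels of different genes can be compared. The 45 genes summed to 4642 ± 399 TPM in the control (mean ± SD, n = 2) and to 4381 ± 592 with TCP. With palbociclib the sum was 2483 ± 82.7, and with the combination it was 1913 ± 53.9, or 41.2% of the control mean. The median gene stood at 93.4% of its control mean with TCP, 51.8% with palbociclib and 38.8% with the combination. No gene was below 50% of its control mean with TCP, 20 were with palbociclib and 36 were with the combination, where 10 were below 30%. The shares of all genes below these marks were not counted. TPM is a share of each library, and in bulk RNA fewer cells in S phase and less RNA per cell cannot be told apart.

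**Figure D1:**
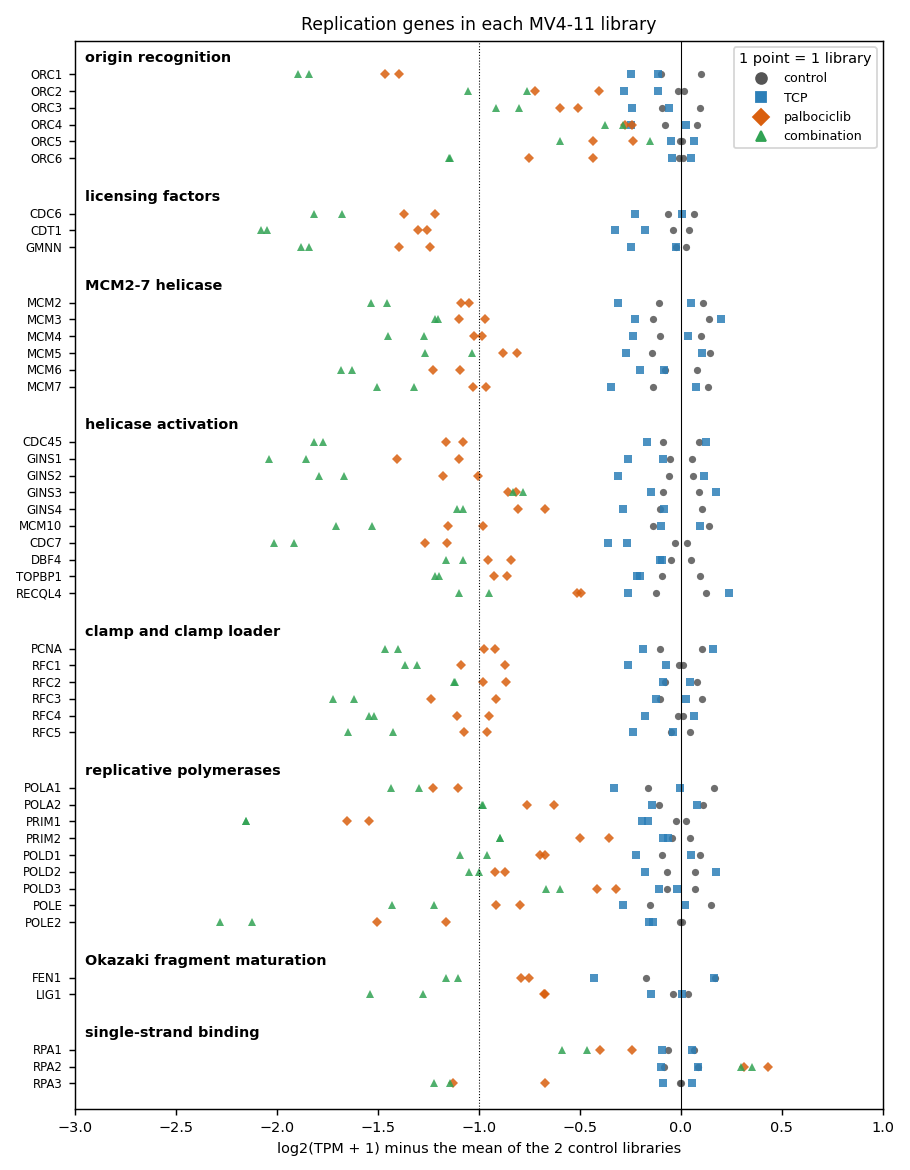
Level of each of the 45 genes in each library, as log2(TPM + 1) minus the mean of the 2 control libraries, with genes grouped by role and a dotted line at a 2-fold fall of TPM + 1. In 44 of the 45 genes both palbociclib libraries and both combination libraries lie left of both control libraries, and RPA2 lies to the right.

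The libraries differed in ways that touch these values. The 10 most abundant genes held 9.12% to 9.67% of all TPM in the control and TCP libraries and 14.0% to 15.8% in the palbociclib and combination libraries. Counts under median-ratio scaling, which brings the median ratio between libraries to the same value, are given beside the main ones where they differ by over 1.5 times. The myeloid markers PTPRC, CD33, SPI1 and FLT3 were present in all 8 libraries, and MPO was low at 1.604 to 7.03 TPM. Marker levels were not constant. FLT3 stood at 249 and 221 TPM in the control, 94.8 and 69.8 with palbociclib, and 81.1 and 62.6 with the combination. SPI1 rose from 214 and 250 TPM in the control to 437 and 497 with the combination. CSF1R rose from 14.6 and 14.7 to 86.9 and 90.7 TPM. PTPRC, CD33 and MPO stood at 163%, 126% and 173% of their control means with the combination. CEBPA stood at 261 and 285 TPM in the control, 175 and 228 with TCP, and 343 and 317 with palbociclib. With the combination CEBPA was near the control, at 278 and 254 TPM. LYZ stood at 278 and 770 TPM in the control and 718 and 1696 with TCP. It reached 16431 and 18984 with palbociclib and 26591 and 28617 with the combination. The study co-cultured its AML lines with HS-5 stromal cells, and 12 stromal markers summed to 1.32 to 6.08 TPM in the control and TCP libraries, 5.89 and 78.4 in palbociclib replicates 1 and 2, and 8.32 and 14.6 in combination replicates 1 and 2. POSTN was listed at 0 in all 8. Palbociclib replicate 2 therefore stood apart, and some of the counts that rest on it are given with and without it.

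A gene was called differentially expressed (DEG) when limma, fitted to log2(TPM + 1) of all 14151 genes, gave a change of 1 or more on the log2 scale in either direction with a p below 0.01 after Benjamini-Hochberg adjustment. All fold changes below are differences of log2(TPM + 1), each with its standard error (SE). Exact permutation tests gene by gene were not used, since groups of 2 allow no two-sided p under 0.333.

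TCP alone left the replication genes near the control level. No gene of the 45 was a DEG by limma, against 0.0565% of all genes tested, and none was lower at an adjusted p below 0.05. At an unadjusted p below 0.05, 3 of the 45 were lower (CDC7, CDT1 and TOPBP1), where 5.09% of all genes were. Under median-ratio scaling 1 was, and the share over all genes was not counted there. The median change was −0.10, against −0.04 over all genes, and it ranged from −0.31 for CDC7 to 0.01 for GINS3. Changes were below 0 in 42 of the 45. The share of all genes below 0 was not counted, and the median over all genes was below 0 as well.

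CDC7, the kinase that fires licensed origins, stood at 51.2 and 53.4 TPM in the control and at 40.5 and 43.2 with TCP, a change of −0.31 ± 0.0879 (adjusted p = 0.302, limma). Both TCP libraries were below both control libraries for CDC7. The same held for 12 of the 45 genes and for 22.3% of all genes. Under median-ratio scaling it held for 7 of the 45, and the share over all genes was not counted there. CDT1, which delivers the MCM2-7 ring, stood at 138 and 130.2 TPM in the control and at 106 and 118 with TCP (−0.25 ± 0.0793, adjusted p = 0.380, limma). When libraries with the same replicate number were compared, 32 of the 45 genes were lower with TCP in both pairs, against 40.5% of all genes. Without TCP replicate 1 the median change was 0.020 and 20 of the 45 genes were below 0, and without control replicate 2 it was −0.021 and 26 were. The medians over all genes were −0.068 and −0.043 in these fits.

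Palbociclib alone lowered the replication genes broadly. Of the 45, 19 were DEG and lower, against 4.56% of all genes. None was a DEG and higher, where 643 of all 14151 genes were. At an adjusted p below 0.05 and any fold, 42 were lower (30.2% of all genes), the exceptions being ORC4, ORC5 and RPA2. Both libraries were below both controls for 44 of the 45 (49.7% of all genes). The median change was −0.92, against −0.16 over all genes. Without palbociclib replicate 2, 10 of the 45 were DEG, and without control replicate 2, 12 were. The share of all genes called DEG and lower fell as well when either library was left out. Under quantile normalization 10 of the 45 were DEG, where 3.34% of all genes were DEG and lower. Under median-ratio scaling 8 were, against 2.79% of all genes. The 10 called without palbociclib replicate 2, the library with most stromal RNA, were CDC45, CDC6, CDC7, CDT1, GINS1, GMNN, MCM6, ORC1, POLE2 and PRIM1. Values just past the fold threshold were MCM4 at −1.01 and RFC5 at −1.02, and values just short of it were MCM7 at −0.995 and RFC1 at −0.98.

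The combination lowered more of them. As DEG, 35 of the 45 were lower, against 7.82% of all genes. None was a DEG and higher, where 830 of all 14151 genes were. Under median-ratio scaling 23 were DEG, where 4.68% of all genes were DEG and lower. At an adjusted p below 0.05 and any fold, 42 were lower (37.6% of all genes), and ORC4, ORC5 and RPA2 were again the exceptions. Both libraries were below both controls for 44 of the 45 (54.2% of all genes). The median change was −1.33, against −0.22 over all genes, and it ranged from −2.20 for POLE2 to 0.32 for RPA2. Set against TCP alone, the combination was lower as DEG in 32 of the 45 (6.7% of all genes) and had both libraries below both TCP libraries in 44 (48.9% of all genes). Under median-ratio scaling 21 were DEG against TCP, where 4.25% of all genes were DEG and lower. The comparisons with the control share the control libraries and those of the combination share its libraries, so these counts are not independent of each other. The values nearest the fold threshold were RECQL4, POLD1 and POLD2 at −1.03 inside it and POLA2 at −0.98 outside it.

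**Figure D2:**
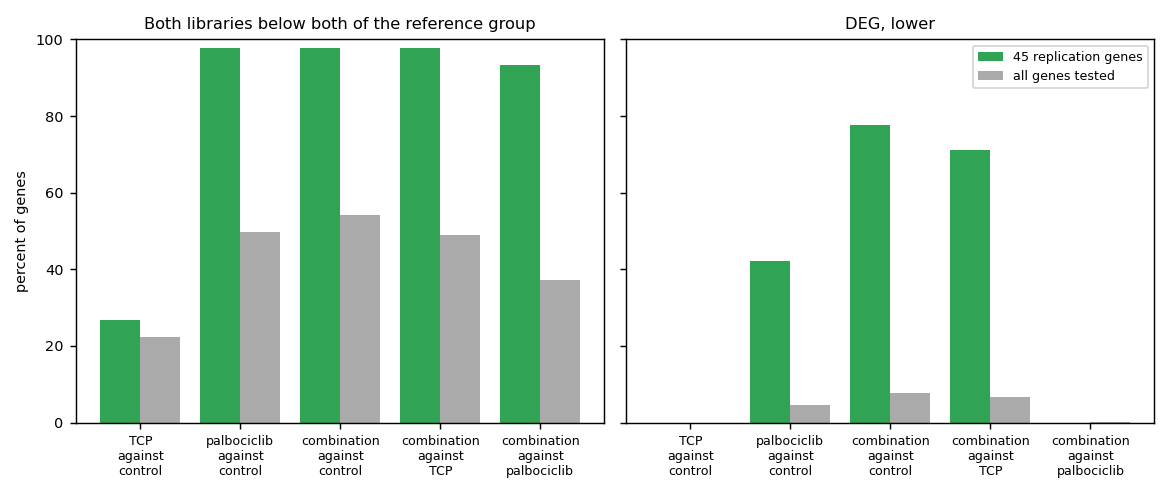
Percent of the 45 replication genes (green) and of the 14151 genes tested (grey) that had both libraries below both libraries of the reference group (left) and that were DEG and lower (right), for 5 comparisons. Bars for TCP against control are close in the left panel, 12 of 45 genes against 22.3% of all genes. Where palbociclib was added, the bars of both panels are far apart. For the combination against palbociclib they are far apart in the left panel, 42 of 45 genes against 37.2% of all genes. In the right panel they are 0 and 0.0424%.

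Among the 6 ORC genes, which mark origins, 1 was a DEG with palbociclib and 2 were with the combination, with medians of −0.56 and −0.88. ORC1, the largest subunit and the one known to vary through the cell cycle, was the largest change among them. It stood at 34.5 and 39.7 TPM in the control, 31.01 and 34.2 with TCP, 12.8 and 13.5 with palbociclib, and 9.23 and 9.62 with the combination. Its change was −1.43 ± 0.104 with palbociclib and −1.87 ± 0.104 with the combination (adjusted p = 1.6e-04 and 3.6e-05, limma). The libraries of the 2 palbociclib-treated groups lay far below the others. ORC6 was the other DEG under the combination, at −1.15, and stood at −0.59 with palbociclib. ORC4 had the smallest change of the ORC genes. It stood at 9.38 and 8.31 TPM in the control, 8.997 and 7.28 with TCP, 7.10 and 7.32 with palbociclib, and 6.57 and 7.07 with the combination (−0.33 ± 0.131, adjusted p = 0.0696). One TCP library lay among the palbociclib libraries of ORC4, and all 4 palbociclib-treated libraries lay below both controls. ORC2 and ORC3 were at −0.91 and −0.86 under the combination, and ORC5 was at −0.38.

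The licensing factors CDC6, CDT1 and GMNN were all DEG with palbociclib and with the combination, with medians of −1.30 and −1.86. CDT1 lies on chromosome 16 from 88870197 to 88875666 on the plus strand (GRCh37). It fell from 138 and 130.2 TPM in the control to 53.7 and 55.4 with palbociclib, and stood at 30.9 and 31.6 with the combination. That is −1.28 ± 0.0793 and −2.07 ± 0.0793 (adjusted p = 1.0e-04 and 1.5e-05, limma), and no 2 of the control, palbociclib and combination groups overlapped. CDC6, the ATPase that completes the ring loader, stood at 56.8 and 62.0 TPM in the control, 50.5 and 59.6 with TCP, 24.9 and 22.3 with palbociclib, and 16.1 and 17.8 with the combination. Its change was −1.75 under the combination, the least of the 3 licensing factors. GMNN, the CDT1 inhibitor, stood at 94.1 and 97.5 TPM in the control, 80.5 and 94.1 with TCP, 40.0 and 35.7 with palbociclib, and 26.0 and 25.3 with the combination (−1.86 ± 0.0997). The activator CDT1 and its inhibitor thus fell together. The ratio of CDT1 to GMNN levels was 1.46 and 1.34 in the control, 1.32 and 1.26 with TCP, 1.34 and 1.55 with palbociclib, and 1.19 and 1.25 with the combination. The combination libraries were below the control and palbociclib libraries in this ratio, and those of palbociclib lay within and above the control range.

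**Figure D3:**
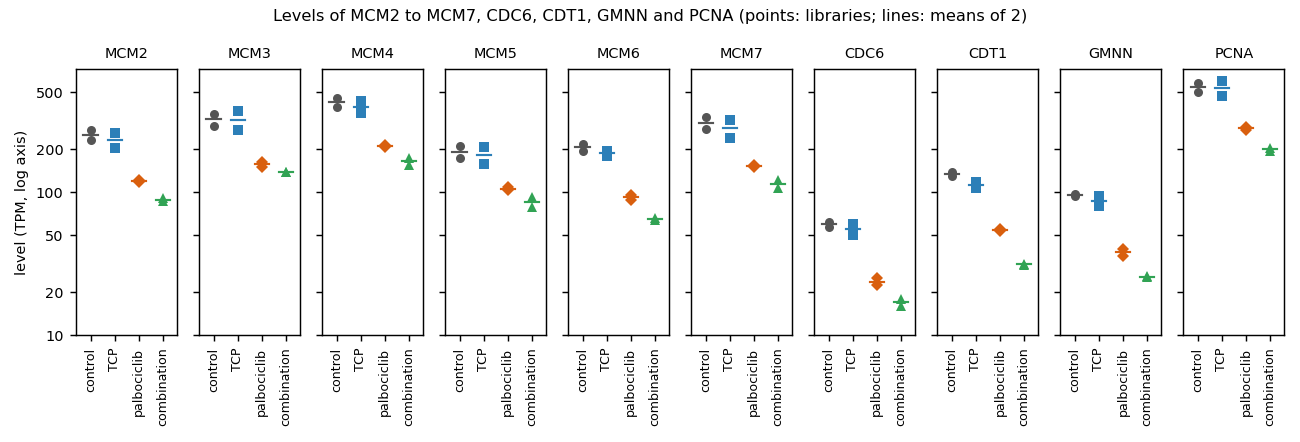
Level in TPM, on a log axis, of the MCM2-7 subunits, CDC6, CDT1, GMNN and PCNA in each library (points), with the mean of the 2 libraries of each group (lines). For all 10 genes both palbociclib libraries lie below both control libraries and both combination libraries lie below both palbociclib libraries.

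The MCM2-7 subunits form the ring that unwinds DNA, and they fell by similar amounts. Their summed level was 1704 ± 197 TPM in the control, 1598 ± 262 with TCP, 836 ± 14.2 with palbociclib and 656 ± 40.4 with the combination (SD, n = 2). Of the 6, 4 were DEG with palbociclib and 6 with the combination. MCM6 changed most under the combination. It stood at 195 and 218 TPM in the control, 179 and 195 with TCP, 96.2 and 87.5 with palbociclib, and 63.7 and 66.2 with the combination, a change of −1.65 ± 0.0893 (adjusted p = 3.4e-05, limma). MCM5 changed least, at −1.15 ± 0.155. It stood at 173 and 211 TPM in the control, 157 and 205 with TCP, 103 and 108 with palbociclib, and 78.7 and 92.6 with the combination. The spread between the combination libraries of MCM5 was wider than that of MCM6. MCM2 stood at 233 and 272 TPM in the control, 203 and 261 with TCP, 121 and 118 with palbociclib, and 86.4 and 91.1 with the combination.

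MCM3 stood at 291 and 353 TPM in the control, 273 and 368 with TCP, 163 and 149 with palbociclib, and 137 and 139 with the combination. Its combination libraries lay close under those of palbociclib, a difference of −0.18 ± 0.152 (adjusted p = 0.613, limma), the smallest of the 6. MCM4 stood at 395 and 454 TPM in the control, 359 and 433 with TCP, 213 and 207 with palbociclib, and 155 and 174 with the combination. MCM7 stood at 277 and 335 TPM in the control, 240.0 and 321 with TCP, 149 and 156 with palbociclib, and 107 and 122 with the combination. MCM4 was the highest of the 6 in all 8 libraries. MCM5 was the lowest in both controls and in TCP replicate 1, and MCM6 was the lowest in the other 5 libraries. The highest subunit exceeded the lowest 2.22 ± 0.0904-fold in the control and 2.53 ± 0.148-fold in the combination (SD, n = 2).

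Of the 10 genes that activate the helicase, 5 were DEG with palbociclib and 9 with the combination, with medians of −0.98 and −1.41. CDC7 fell most. It stood at 22.9 and 21.1 TPM with palbociclib and at 12.2 and 13.1 with the combination, against 51.2 and 53.4 in the control (−1.97 ± 0.0879 for the combination, adjusted p = 2.2e-05, limma). Its regulatory partner DBF4 was at −1.12, a DEG as well. The GINS complex has 4 subunits that travel with the helicase, and their values differed in size. GINS1 was at −1.95 and GINS2 at −1.73 under the combination, GINS4 at −1.09 and GINS3 at −0.81. GINS3 was the 1 gene of the 10 that was not a DEG under the combination. It stood at 31.6 and 36.0 TPM in the control, 30.3 and 38.2 with TCP, 18.2 and 18.7 with palbociclib, and 18.5 and 19.2 with the combination. Its combination libraries were not below those of palbociclib (0.03 ± 0.125, adjusted p = 0.933). CDC45, the other helicase partner, was at −1.79 and MCM10 at −1.62. TOPBP1 and RECQL4, which help to assemble the complex, were at −1.21 and −1.03.

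PCNA, the sliding clamp, had the highest level of the 45 genes. It stood at 501 and 580 TPM in the control, 473 and 603 with TCP, 285 and 274 with palbociclib, and 195 and 204 with the combination. Its change was −0.95 ± 0.126 with palbociclib and −1.43 ± 0.126 with the combination (adjusted p = 0.0013 and 1.7e-04, limma). With palbociclib the RFC subunits, which load PCNA, moved within a narrow band, from −1.08 for RFC3 to −0.92 for RFC2. With the combination the band was wider, from −1.67 for RFC3 to −1.12 for RFC2. RFC3 stood at 59.3 and 51.3 TPM in the control, 56.1 and 50.6 with TCP, 28.8 and 22.8 with palbociclib, and 17.3 and 16.0 with the combination. RFC2 stood at 54.2 and 60.8, 53.9 and 59.2, 30.99 and 28.6, and 25.8 and 25.9 TPM in the same order. Levels of these 2 genes overlapped in the control and separated in the combination. PCNA and all 5 RFC genes were DEG under the combination, and 3 of the 6 were with palbociclib.

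Of the 9 polymerase and primase genes, 3 were DEG with palbociclib and 6 with the combination, with medians of −0.85 and −1.03. POLE2, the second subunit of the leading-strand polymerase epsilon, fell most of all 45 genes under the combination. It lies on chromosome 14 from 50110273 to 50155140 on the minus strand (GRCh37). POLE2 stood at 20.9 and 21.1 TPM in the control, 19.0 and 18.8 with TCP, 8.83 and 6.75 with palbociclib, and 3.52 and 4.06 with the combination, or 18.0% of the control mean. Its change was −2.20 ± 0.135 under the combination (adjusted p = 5.1e-05, limma). The catalytic subunit POLE was at −1.33. POLA1, the catalytic subunit of polymerase alpha, was at −1.17 with palbociclib and −1.37 with the combination, and POLA2 at −0.69 and −0.98. POLD1 and POLD2 of polymerase delta stood at −0.69 and −0.89 with palbociclib. PRIM1, the catalytic subunit of primase, fell most with palbociclib, to 32.1% of the control mean. It stood at 69.0 and 66.8 TPM in the control, 60.6 and 59.3 with TCP, 22.7 and 20.9 with palbociclib, and 14.5 in both combination libraries (−1.60 ± 0.0780 and −2.15 ± 0.0780). Its partner PRIM2, the other primase subunit, was at −0.43 and −0.89. PRIM2 shares exonic bases with the same-strand gene PRIM2BP, and PRIM1 shares some with NACA. POLA2 also shares exonic bases, in part with a gene on the same strand. Reads of PRIM1, PRIM2 and POLA2 may thus be split, and their values are uncertain to that extent. POLD3, an accessory subunit of the lagging-strand polymerase delta, changed least of the 9. It stood at 44.3 and 48.8 TPM in the control, 43.0 and 45.8 with TCP, 37.0 and 34.6 with palbociclib, and 28.9 and 30.4 with the combination (−0.63 ± 0.0874, adjusted p = 0.0011). The groups with palbociclib were still below both controls for POLD3.

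LIG1, the ligase that seals Okazaki fragments, and FEN1, the nuclease that trims them, were DEG under the combination and not with palbociclib. LIG1 stood at 39.5 and 41.6 TPM in the control, 36.6 and 40.7 with TCP, 24.999 and 25.05 with palbociclib, and 13.3 and 16.2 with the combination (−0.68 ± 0.111 and −1.41 ± 0.111). FEN1 stood at 172 and 218 TPM in the control, 144 and 218 with TCP, 112 and 115 with palbociclib, and 86.1 and 89.6 with the combination (−1.13 ± 0.195, adjusted p = 0.0027, limma). FEN1 had the widest error of the 45 genes.

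The single-strand binding protein RPA, which coats unwound DNA, has 3 subunits, and they moved apart. RPA3 was a DEG under the combination at −1.18 ± 0.150. It stood at 36.6 and 36.5 TPM in the control, 34.3 and 38.1 with TCP, 22.6 and 16.2 with palbociclib, and 15.1 and 16.0 with the combination. RPA1 was at −0.53 under the combination. RPA2, on chromosome 1 from 28218035 to 28241257 on the minus strand (GRCh37), went the other way. RPA2 stood at 109 and 123 TPM in the control, 108 and 123 with TCP, 157 and 144 with palbociclib, and 148 and 143 with the combination. Its change was 0.37 ± 0.0959 with palbociclib and 0.32 ± 0.0959 with the combination (adjusted p = 0.0179 and 0.0256, limma), past an adjusted p of 0.05 but short of the DEG thresholds. All 4 palbociclib-treated libraries of RPA2 were above all 4 others. RPA2 was higher than the control in both groups under quantile normalization and median-ratio scaling as well.

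**Figure D4:**
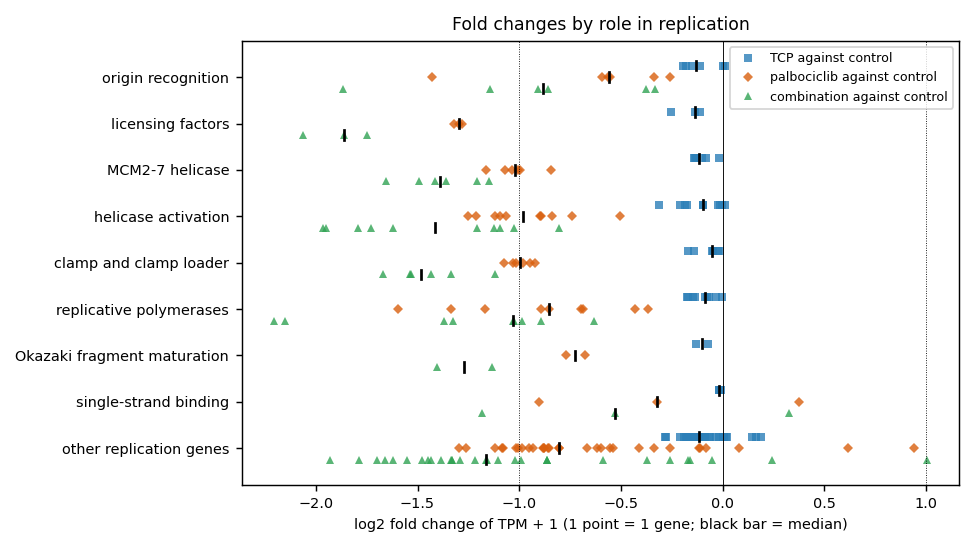
Log2 fold change of TPM + 1 against the control for each gene, by role, under TCP (squares), palbociclib (diamonds) and the combination (triangles), with the median of each group as a black bar and dotted lines at the DEG fold threshold. The licensing factors have the lowest medians, −1.30 with palbociclib and −1.86 with the combination, and the RPA genes the highest of the 45 at −0.32 and −0.53.

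Adding TCP to palbociclib lowered the genes further, by less than the fold threshold. Against palbociclib alone no gene of the 45 was a DEG by limma (0.0424% of all genes were DEG and lower). At an adjusted p below 0.05 and any fold, 10 were lower, against 1.44% of all genes: POLE2, CDT1, CDC7, LIG1, GINS1, CDC45, PRIM1, GMNN, MCM6 and PRIM2. Under median-ratio scaling 5 were, and the share over all genes was not counted there. With the replicate number as a block in the fit, 23 were lower, against 5.08% of all genes. At an unadjusted p below 0.05 there were 32, against 11.3%. Both combination libraries were below both palbociclib libraries in 42 of the 45 (37.2% of all genes), the exceptions being GINS3, ORC5 and RPA2, and 43 were lower in both same-number pairs (50.8% of all genes). The median difference was −0.42, against −0.07 over all genes. POLE2 differed most, at −0.87 ± 0.135 (adjusted p = 0.0238), then CDT1 at −0.78 ± 0.0793 (adjusted p = 0.0065) and CDC7 at −0.75 ± 0.0879 (adjusted p = 0.0091, limma). LIG1 followed at −0.73 ± 0.111. Of the 10, LIG1 and PRIM2 had no DEG call under palbociclib alone. The count of 10 rested on single libraries: it was 0 without palbociclib replicate 1, without combination replicate 1 or without combination replicate 2, 1 without palbociclib replicate 2, and 3 without either control library.

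Whether TCP did more in the presence of palbociclib was tested as the interaction, the difference between the change made by TCP on top of palbociclib and that made by TCP alone. No gene of the 45 passed an adjusted p of 0.05 by limma, and none was a DEG (0% of all genes). At an unadjusted p below 0.05, 17 of the 45 had a negative interaction, against 3.53% of all genes. The smallest adjusted p was 0.342, for CDT1 at −0.53 ± 0.112. POLE2 had the most negative value, −0.72 ± 0.191, followed by LIG1 at −0.66 and CDC45 at −0.65. The median was −0.27, against −0.03 over all genes, and 43 of the 45 values were below 0. A value below 0 means that TCP made the more negative change with palbociclib. These 43 are 95.6% of the 45 genes, and 55.7% of all genes had such a value. The 45 genes were read in the same 8 libraries, so this count is a description and not a test. Between 7 and 24 of the 45 were below the unadjusted threshold when 1 library was left out. The lowest count, 7, was without palbociclib replicate 1, and it was 8 without control replicate 1 or combination replicate 2 and 10 without TCP replicate 2.

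**Figure D5:**
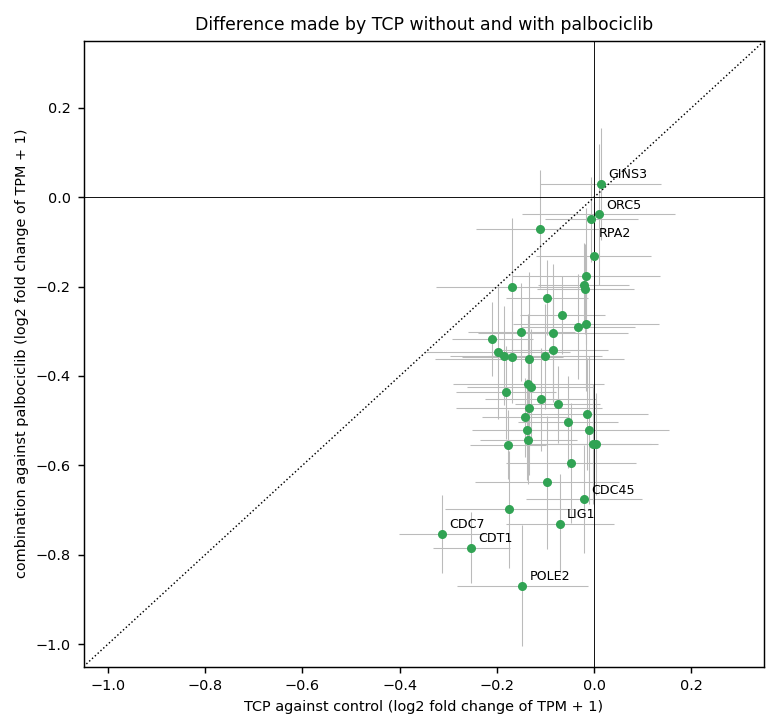
Change made by TCP without palbociclib (horizontal) and on top of palbociclib (vertical) for each of the 45 genes, as log2 fold change of TPM + 1 with SE as grey bars and a dotted line where both are equal. Points of 43 genes lie below the line, with POLE2, CDT1, CDC7 and LIG1 the lowest.

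A further 31 replication genes that were not among the 45 were read in the same way. With palbociclib 7 of them were DEG and lower, against 4.56% of all genes. With the combination 19 were DEG and lower, against 7.82% of all genes. Another 1 was DEG and higher, where 830 of all 14151 genes were. The medians were −0.81 with palbociclib and −1.16 with the combination. The largest falls under the combination were those of DSCC1, TOP2A and CHAF1B. DSCC1, of a clamp loader for sister-chromatid cohesion, stood at 49.6 and 44.7 TPM in the control, 45.2 and 44.7 with TCP, 23.6 and 15.4 with palbociclib, and 12.3 and 10.9 with the combination (−1.93 ± 0.184). TOP2A, the topoisomerase that untangles replicated DNA, stood at 266 and 327, 255.5 and 285, 118 and 122, and 82.8 and 87.0 TPM in the same order (−1.79 ± 0.110). CHAF1B, of the factor that places new histones, stood at 24.9 and 30.2, 24.1 and 30.5, 13.3 and 10.9, and 7.59 and 7.90 TPM, again in that order (−1.70 ± 0.157). For each of these genes the control and combination libraries were far apart. The smallest changes were −0.05 ± 0.127 for POLE3 and −0.16 ± 0.1004 for POLE4, the histone-fold subunits of polymerase epsilon, and −0.17 ± 0.0746 for CHTF8 (adjusted p = 0.755, 0.212 and 0.0947, limma). POLE3 stood at 189 and 222 TPM in the control, 182 and 232 with TCP, 217 and 216 with palbociclib, and 192 and 204 with the combination. POLE4 stood at 64.1 and 59.0, 64.0 and 74.4, 60.6 and 55.7, and 56.6 and 53.1 TPM in the same order. CHTF8, of the same clamp loader as DSCC1, stood at 149 and 151, 133 and 149, 137 and 141, and 134 and 132 TPM. The groups of POLE3 overlapped, and the signs of all 3 genes changed with the scaling.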

How the data were processed

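RNA was sequenced from MV4-11 cells as Illumina stranded mRNA libraries. The authors aligned reads to hg19 (GRCh37) with subread-align and counted them per gene with featureCounts 1.6.4, and the deposited table gives TPM, which the authors made from the counts. The annotation, gene lengths and strand setting are not given in the sources used here. Library depth cannot be read from TPM, and no count test was run. SAMtools 1.9 is also named in the submitters' processing notes.

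Genes that reached 1 TPM in 2 or more libraries were kept, and their deposited values were used as log2(TPM + 1). Groups came from the labels. limma 3.58.1 (R 4.3.3) with a variance trend was fitted on all 8 libraries with 1 coefficient per group and tested on simulated data. DEG thresholds follow the study, which applied them to a count model. Libraries with the same replicate number deviated together in all 6 pairs of groups (r = 0.169 to 0.491 over genes), so the replicate number was tried as a block; the pairing comes from the values, not from the labels. Other alternatives were the pseudocount, filters, quantile and median-ratio scaling, the groups in the fit, the trend, the p threshold and leaving out each library. Values in every library were given for MCM2 to MCM7, CDC6, CDT1, GMNN, PCNA, for the largest fall and the smallest change of each role under the combination, and for the 3 largest falls and 3 smallest changes of the further replication genes. The 45 genes and the lists were chosen with earlier results of these data known.

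Gene positions are GRCh37 (GENCODE) and promoters GRCh38.p14 (RefSeq), and the 2 were not combined. In GENCODE, MCM2, GINS3, GINS4, RFC5, POLA2, PRIM1 and PRIM2 share over 10% of their exonic bases with another gene; for those that share with a gene on the opposite strand this matters only if strand was not used in counting.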

Additional observations from a re-analysis of the deposited data

How the results depend on the processing

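No member of the 45 changed direction against the control under any alternative run for palbociclib or the combination. Both rescalings shift all genes: the median over all genes moved from −0.16 to −0.05 under quantile normalization and to 0 under median-ratio scaling with palbociclib, and from −0.22 to −0.07 and 0 with the combination, and the changes of the replication genes shrank with it. The members called DEG then numbered 10 and 8 with palbociclib, 25 and 23 with the combination (3.34% and 2.79%, and 5.55% and 4.68%, of all genes were then DEG and lower), and 21 for the combination against TCP under median-ratio scaling (4.25% of all genes). Of all genes called DEG with palbociclib, 645 of 1288 were lower as deposited and 395 of 1233 under median-ratio scaling; with the combination these were 1107 of 1937 and 662 of 1789. The members' median change became −0.79 and −0.75 with palbociclib, −1.11 and −1.09 with the combination, and −1.01 and −0.99 for the combination against TCP.

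When 1 library was left out, the DEG count with palbociclib ranged from 10 to 22. The members' median ranged from −1.35 to −1.19 with the combination, from −1.35 to −1.07 for the combination against TCP, from −0.18 to 0.020 with TCP, and from −0.39 to −0.18 for the interaction. For the counts of members at an adjusted p below 0.05 and any fold, at an unadjusted p and without overlap, the alternatives were chosen after seeing the data. Apart from the replicate block, the shares over all genes were not counted for them under the alternatives. Members lower in the combination than with palbociclib at an adjusted p below 0.05 and any fold numbered 10, and 4 without a filter on low values, 5 under median-ratio scaling, 4 with only the groups compared in the fit, 6 without a trend, 23 with the replicate block, and 0 to 13 with 1 library left out. The replicate block changed no DEG call of a member and moved no other count of members by over 1.5 times. Over all genes it moved the DEG from 8 to 20 with TCP and from 71 to 114 for the combination against palbociclib. At an unadjusted p below 0.05, leaving out 1 library gave 21 to 34 for this difference, 7 to 24 for the interaction and 1 to 7 for TCP, which had 1 under median-ratio scaling. Members with both TCP libraries below both controls numbered 7 under median-ratio scaling and 12 to 41 with 1 library left out. The highest came without TCP replicate 2, and 30 came without control replicate 1. A group of 1 library meets this rule more easily, and the shares over all genes were not counted there, so the higher counts are not read as a change with TCP. With 1 library left in a group, that library was assumed to vary like the other groups. The looser core GCGCG or CGCGC, added to the E2F sites, and contained in TTTCGCGC itself, matched 37 of the 38 promoters, against 72.5% of the tested genes.

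Signs turned for genes near 0. Against palbociclib, ORC5 in the combination was at −0.039 and became 0.035 under quantile normalization and 0.025 under median-ratio scaling, and it ranged from −0.26 to 0.18 with 1 library left out. RPA2 was at −0.050 and became 0.019 under median-ratio scaling, and it ranged from −0.11 to 0.010. Against the control, the combination gave POLE3 0.088 and 0.19 under quantile normalization and median-ratio scaling, POLE4 0.040 and 0.079, and CHTF8 0.075 under median-ratio scaling. With palbociclib POLE4 was at 0.069 and 0.094 and CHTF8 at 0.0060 and 0.066 under both rescalings. With 1 library left out, POLE3 ranged from −0.16 to 0.063 with the combination and from −0.036 to 0.19 with palbociclib. The cause of each was not tested.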

Other observations

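Subunits of the same replication enzyme divided under the combination, a pattern chosen after the values were seen. POLD4, the smallest subunit of polymerase delta, was the 1 further replication gene called higher under the combination. Over all 14151 genes, 830 were called higher there. POLD4 stood at 59.5 and 60.9 TPM in the control, 59.97 and 61.7 with TCP, 113 and 120.0 with palbociclib, and 118 and 125 with the combination, a change of 0.94 ± 0.0708 with palbociclib and 1.003 ± 0.0708 with the combination (adjusted p = 1.8e-04 and 7.8e-05, limma). POLD1, POLD2 and POLD3 of the same enzyme were at −1.03, −1.03 and −0.63 under the combination. In polymerase epsilon, POLE2 and POLE were at −2.20 and −1.33, and POLE3 and POLE4 were at −0.05 and −0.16.

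RNase H2, which removes RNA from DNA, has 3 subunits. RNASEH2A and RNASEH2B were at −1.29 ± 0.160 and −1.22 ± 0.129 under the combination (adjusted p = 6.6e-04 and 3.5e-04, limma). RNASEH2C stood at 72.3 and 77.8 TPM in the control, 61.01 and 72.9 with TCP, 115 and 116 with palbociclib, and 84.5 and 93.3 with the combination. Its change was 0.62 ± 0.103 with palbociclib (adjusted p = 0.0033, limma) and 0.24 ± 0.103 with the combination (adjusted p = 0.0878). Against palbociclib, the combination libraries of RNASEH2C differed by −0.38 ± 0.103 (adjusted p = 0.117). POLD4 and RNASEH2C stayed above the control, and RNASEH2A and RNASEH2B below it, with palbociclib and with the combination under quantile normalization and median-ratio scaling.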
